A study of Mus musculus with 4 samples.

Results

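The interferon regulatory factor genes and Prdm1 were followed in naive CD4+ T cells of mice that lack TACI, with Irf4 as the member that differed most from wild type. The group was chosen by gene family together with the measured difference of Irf4 between the genotypes: Irf1, Irf2, Irf3, Irf4, Irf5, Irf7, Irf8, Irf9 and Prdm1, 9 genes in all. Of these, 8 had a probe set that the platform annotation assigns to 1 gene symbol, out of 22180 such genes on the array. The probe set that carries the symbol Irf5 also carries Tnpo3, so no value is given for Irf5. Since the group was chosen on this contrast, the levels and differences of its members are given as a description, and the fit over all genes is no independent test of them.

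Cells were sorted as CD4+ CD62Lhigh CD44low CD25- from C57BL/6 mice, with the cells of spleen and lymph nodes pooled, and came from TACI-/- or wild-type (WT) animals. TACI is the receptor encoded by Tnfrsf13b, which binds the cytokines BAFF and APRIL. Each genotype had 2 Affymetrix Mouse Gene 2.0 ST arrays, named biological replicates in the labels, so every comparison is 2 arrays against 2. The labels give 2 mice per genotype. How the TACI allele was made, the age of the mice and whether each array is 1 mouse are not given in the sources used here, and p-values measure only the spread between these arrays. Array medians lay between 4.11 and 4.13 log2 units. Of the markers of the sorted cells, Cd4 lay between 10.4 and 10.6 and Cd3e between 11.2 and 11.6 log2 units, while Cd8a was at 2.99 to 3.13, under the low-value filter of 3.74 to 3.77 on every array. Cd8b1, which encodes the other CD8 chain, was at 5.73 to 6.59, above the filter on all 4 arrays. Tnfrsf13b was also under the filter on all 4 arrays (2.73 and 3.09 in TACI-/-, 2.95 and 3.02 in WT), so it does not check the genotype labels.

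Interferon regulatory factors (IRFs) are transcription factors with a shared DNA-binding domain that reads repeats of the GAAA core. Irf3, Irf5 and Irf7 are switched on by kinases downstream of sensors of foreign nucleic acid and start interferon transcription. Irf9 is part of the complex ISGF3 (interferon-stimulated gene factor 3), which answers type I interferon, and Irf1 is induced by interferon gamma, with Irf2 acting against it at many sites. Irf4 and Irf8 form a lymphoid and myeloid pair that binds weakly alone and pairs with Ets or AP-1 factors. In T cells Irf4 is induced through the antigen receptor in proportion to signal strength, and Prdm1, which encodes the repressor Blimp-1, is a known target of Irf4 in effector T cells and plasma cells.

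The regions upstream of start sites are shown for 4 members: Irf4, Irf1 and Irf8, whose levels were higher in TACI-/- cells on both arrays, and Irf2, whose arrays overlapped. Each is the 250 bases before the outermost RefSeq start site in GRCm38.p6, on the + strand, at chr13:30748983-30749232 for Irf4, chr11:53769764-53770013 for Irf1, chr8:120736108-120736357 for Irf8 and chr8:46739495-46739744 for Irf2. Capitals mark matches, on either strand, to any of 5 motifs: the IRF element GAAANNGAAA, the Ets and IRF composite element GGAANNGAAA, the gamma-activated site TTCNNNGAA read by STAT proteins, the AP-1 site TGANTCA, and a loose NF-kB site GGGNNNNNCC.
Irf4: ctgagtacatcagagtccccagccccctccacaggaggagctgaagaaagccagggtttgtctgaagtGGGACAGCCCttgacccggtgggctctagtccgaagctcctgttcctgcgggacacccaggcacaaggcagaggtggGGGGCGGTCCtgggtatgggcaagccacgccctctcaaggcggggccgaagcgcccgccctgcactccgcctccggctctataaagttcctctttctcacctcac
Irf1: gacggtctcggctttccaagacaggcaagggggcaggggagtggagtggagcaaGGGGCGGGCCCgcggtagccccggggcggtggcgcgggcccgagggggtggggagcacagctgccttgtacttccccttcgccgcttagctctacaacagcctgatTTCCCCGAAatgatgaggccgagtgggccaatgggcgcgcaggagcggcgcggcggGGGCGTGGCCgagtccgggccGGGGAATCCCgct
Irf8: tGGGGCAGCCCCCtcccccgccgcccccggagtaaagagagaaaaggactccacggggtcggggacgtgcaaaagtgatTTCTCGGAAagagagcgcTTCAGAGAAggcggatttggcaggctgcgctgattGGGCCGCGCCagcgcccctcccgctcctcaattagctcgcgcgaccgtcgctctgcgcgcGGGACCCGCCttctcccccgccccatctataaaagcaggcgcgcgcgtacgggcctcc
Irf2: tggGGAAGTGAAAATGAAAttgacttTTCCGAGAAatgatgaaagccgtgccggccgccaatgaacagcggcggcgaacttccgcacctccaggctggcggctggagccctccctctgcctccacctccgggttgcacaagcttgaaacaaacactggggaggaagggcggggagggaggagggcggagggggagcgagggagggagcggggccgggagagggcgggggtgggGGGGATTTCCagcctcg

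The 4 windows differed in what they held. Irf4 matched only the loose NF-kB pattern, at -182 and -105 from its start site, and 45.8% of the 32851 windows of this length in the RefSeq promoter table hold that pattern. Irf1 held a gamma-activated site, TTCCCCGAA at -90, and an NF-kB match, GGGGAATCCC at -13, among other NF-kB matches. Irf8 held gamma-activated sites at -171 (TTCTCGGAA) and -153 (TTCAGAGAA), a pattern found in 7.02% of all windows. Irf2 held an Ets and IRF element (GGAAGTGAAA at -247) that shares its last 4 bases with an IRF element (GAAAATGAAA at -241), a gamma-activated site at -224 and an NF-kB match at -17. Of the 12 windows of the 9 members, Irf2 alone had the IRF element, which 2.98% of all windows hold, and the composite element, which 2.3% hold. Prdm1 alone had the AP-1 site, TGAATCA at -48, against 6.75% of all windows. These matches are letters in a window, and no binding was measured.

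Irf4 was 3.05-fold higher in TACI-/- cells. It measured 5.70 and 5.82 log2 units on the TACI-/- arrays and 4.13 and 4.16 on the WT arrays. Both TACI-/- arrays were above both WT arrays by far more than replicates differed, since the replicates of a genotype lay 0.12 and 0.03 log2 units apart. The means were 5.76 ± 0.08 and 4.15 ± 0.02 (SD, n = 2), a difference of 1.61 ± 0.13 (moderated SE). The WT level stood only 0.36 above the highest filter value, and RMA values of dim probe sets understate folds. In bulk samples such as these, more cells with Irf4 RNA and more Irf4 RNA per cell cannot be told apart.

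Among the 8 measured members, Irf4 was the 1 past an adjusted p of 0.05 in the fit over all 13782 tested genes (limma, Benjamini-Hochberg), a threshold that 0.138% of the tested genes passed. That contrast was used to choose the group, so nothing is read from the count. Irf4's difference was 1.55 to 1.67 with any 1 array left out, but no gene passed in those limma fits (721 to 1145 genes had an unadjusted p under 0.05). Irf4 was also not past the threshold with no low-value filter or with no moderation of the variance.

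**Figure D1:**
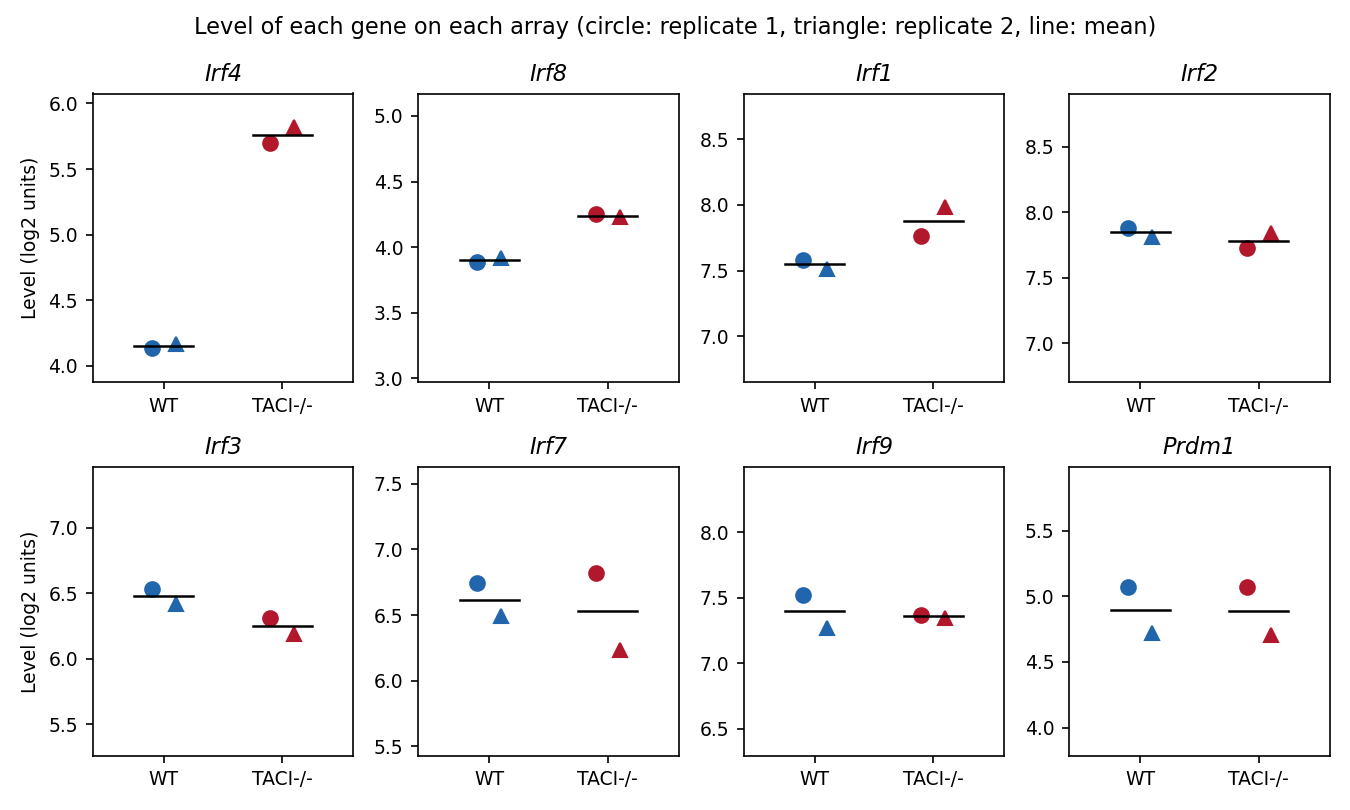
Level in log2 units (vertical axis, 2.2 units high in every panel) of the 8 measured members on each array, WT in blue and TACI-/- in red, with circles for replicate 1, triangles for replicate 2 and a line at the mean of 2 arrays. Irf4 separates by more than 1.5 log2 units, Irf8 and Irf1 by less, and Prdm1 shows the same pair of values in both genotypes.

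Irf8, the closest relative of Irf4 and a factor of B cells, dendritic cells and macrophages, was also higher, by a smaller amount. It measured 4.25 and 4.23 log2 units in TACI-/- and 3.89 and 3.92 in WT cells, a difference of 0.34 ± 0.13 (SE), or 1.26-fold. Its arrays did not overlap, and replicates of a genotype differed by only 0.02 and 0.03. Irf8 was the dimmest measured member against the filter, with its lowest array 0.12 above it. A second probe set of Irf8 measured 3.06 and 2.72 in TACI-/- and 3.01 and 2.99 in WT cells, under the filter on every array, so it does not bear on the brighter one. With the mean of both probe sets the difference of Irf8 was 0.11.

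Irf1, an activator induced by interferon gamma and by NF-kB, measured 7.77 and 7.98 log2 units in TACI-/- and 7.58 and 7.52 in WT cells. All values of TACI-/- lay above those of WT, but the closest arrays were 0.18 apart while the TACI-/- replicates were 0.22 apart. The difference was 0.33 ± 0.14 (SE), or 1.25-fold, and it ranged from 0.22 without TACI-/- replicate 2 to 0.44 without TACI-/- replicate 1. Irf1 lies on chromosome 11, as does the targeted gene Tnfrsf13b, with 92 tested genes between them in the GRCm38.p6 gene order. Whether DNA around the targeted allele differs between the genotypes was not tested. Its repressive counterpart Irf2 measured 7.73 and 7.84 in TACI-/- and 7.88 and 7.81 in WT cells. These values overlapped, with a difference of -0.06 ± 0.13 (SE).

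Of the members that begin or relay the type I interferon response, Irf3 was slightly lower and the others overlapped. Irf3, which is present before infection and starts interferon beta transcription, measured 6.31 and 6.19 log2 units in TACI-/- and 6.53 and 6.42 in WT cells. The TACI-/- arrays were both below the WT arrays, yet the closest arrays were only 0.11 apart, no more than the 0.12 and 0.11 between replicates. The difference of Irf3 was -0.23 ± 0.13 (SE).

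Irf7, itself an interferon-induced gene that amplifies the response, measured 6.82 and 6.23 in TACI-/- and 6.74 and 6.49 in WT cells. The TACI-/- replicates of Irf7 differed by 0.59, far more than the genotypes (-0.09 ± 0.22, SE). Irf9, the DNA-binding part of ISGF3, measured 7.37 and 7.34 in TACI-/- and 7.52 and 7.27 in WT cells, with a difference of -0.04 ± 0.14 (SE). The sign of the differences of Irf7, Irf9 and Prdm1 changed with the array left out, with ranges of -0.38 to 0.21, -0.16 to 0.08 and -0.19 to 0.18.

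Prdm1, the known downstream gene of Irf4, had the same level in both genotypes to within 0.01 log2 units. It measured 5.07 and 4.70 in TACI-/- and 5.07 and 4.72 in WT cells, a difference of -0.01 ± 0.19 (SE). Replicate 1 was above replicate 2 by 0.37 in TACI-/- and by 0.35 in WT cells, so the spread between replicates was much larger than that between genotypes. An SE of 0.19 leaves room for changes of the size seen for Irf8 in either direction.

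Genotypes separated without overlap for 4 of the 8 members. TACI-/- was higher for 3, Irf4, Irf8 and Irf1, where 20.5% of the tested genes separated that way, and lower for 1, Irf3, where 18.1% did. All 8 were at or above the filter on all 4 arrays, so none was tested through 1 genotype alone. The median difference of the 8 was -0.02 log2 units, against 0.01 for all tested genes.

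**Figure D2:**
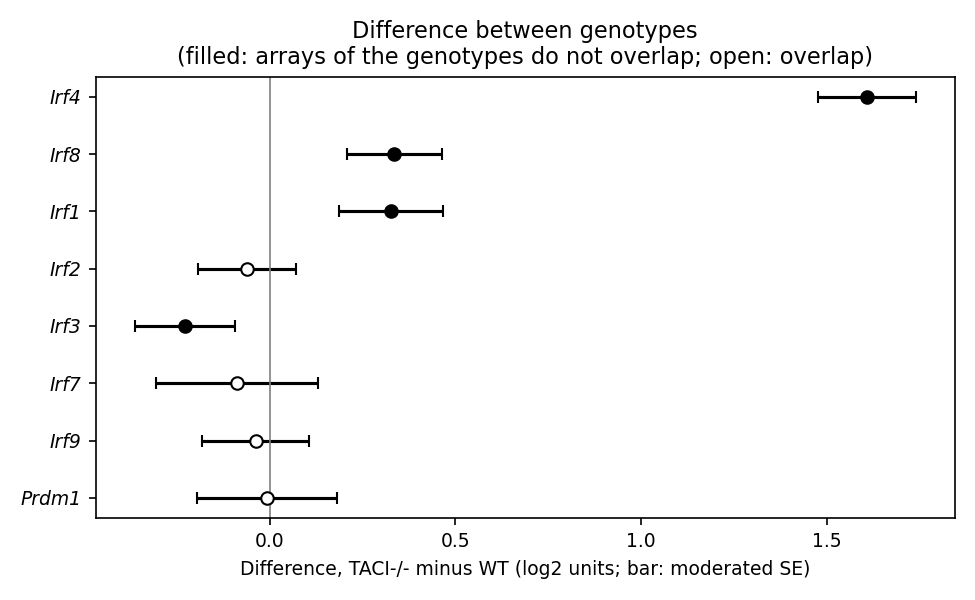
Difference between genotypes, TACI-/- minus WT, in log2 units (horizontal axis) for the 8 measured members, with bars for the moderated SE. Filled points mark members whose arrays do not overlap between genotypes, and Irf4 at 1.61 stands apart from the other members, which lie between -0.23 and 0.34.

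The genes whose values over the 4 arrays were most like those of Irf4 were Ctla4, Irs2, Tnfaip3, Sik1 and Plk2. Likeness was measured as the root mean square difference between profiles, after each gene's own mean was subtracted, among all tested genes outside the group. It was 0.08 log2 units for Ctla4, an inhibitory receptor of T cells, which measured 6.27 and 6.25 in TACI-/- and 4.60 and 4.79 in WT cells. It was 0.12 for the insulin receptor adaptor Irs2, and 0.14 each for Tnfaip3 (the NF-kB inhibitor A20), the salt-inducible kinase Sik1 and the polo-like kinase Plk2. Their differences lay between 1.34 for Plk2 and 1.76 for Sik1. With 4 arrays in 2 groups, likeness mostly reflects a similar difference between genotypes.

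**Figure D3:**
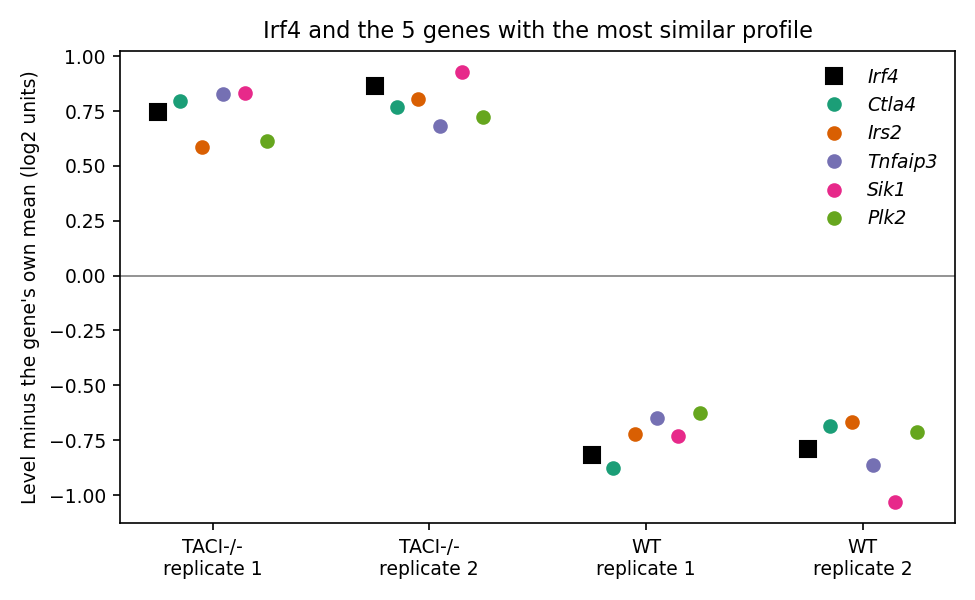
Level minus the gene's own mean over 4 arrays, in log2 units (vertical axis), on each array (horizontal axis) for Irf4 (black squares) and the 5 genes with the closest profiles (coloured circles). On every TACI-/- array all 6 genes are above 0, and on every WT array all 6 are below it.

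The tested genes next to Irf4 on chromosome 13 did not share its difference. Dusp22, a phosphatase gene, measured 4.63 and 4.64 log2 units in TACI-/- and 4.75 and 4.89 in WT cells (difference -0.19 ± 0.13, SE). Exoc2, which encodes an exocyst subunit, measured 7.68 and 7.93 against 7.92 and 7.73 (-0.02 ± 0.15, SE). The next on either side, Uqcrfs1 and Hus1b, had -0.14 and -0.08, and none of the 4 passed the threshold (limma adjusted p 0.76 to 0.992). Beside Irf1, the neighbours Rad50 and Slc22a5 had differences of 0.24 and 0.39, each higher on both TACI-/- arrays. The cytokine gene Il13 had -0.62, lower on both, and Gm12216 overlapped. None passed (limma adjusted p 0.373 to 0.928 over the 4 neighbours of Irf1).

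On the list of antigen receptor signalling genes and genes that such signals induce, Nr4a nuclear receptor genes had the largest differences. Of 18 tested genes of that list, 2 rose, Nr4a3 and Nr4a2, none fell and 16 did not pass (limma, adjusted over all tested genes). Over all tested genes 0.138% passed. The list was chosen with earlier results of these data known, so nothing is read from the count. Nr4a3, an orphan nuclear receptor induced by antigen receptor signals, measured 8.16 and 8.23 log2 units in TACI-/- and 5.89 on both WT arrays (limma adjusted p = 0.00514). Nr4a2 measured 6.77 and 6.67 against 4.72 and 4.02 (limma adjusted p = 0.0296). Nr4a1 measured 9.14 and 8.79 against 7.78 and 6.93, and the early growth response gene Egr1 had a difference of 0.62, without passing (limma adjusted p = 0.189 and 0.321). The signalling enzymes and adaptors of the list had differences from -0.19 for Lat to 0.39 for Bcl10, with Zap70 at 0.02, and the NF-kB subunits from 0.04 for Rela to 0.41 for Rel, all 5 named after their values were seen. The list's median was 0.13, against 0.01 for all tested genes. With 1 array left out it ranged from 0.09 without WT replicate 2 to 0.27 without TACI-/- replicate 2.

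None of the 18 tested transcription factors known to act with Irf4 passed. Junb, the AP-1 partner of BATF at composite sites, measured 9.47 and 9.13 log2 units in TACI-/- and 8.45 and 8.31 in WT cells (0.92, limma adjusted p = 0.189). Foxp3 had 0.58, the Ikaros family member Ikzf3 0.31 and Batf2 -0.27, while Batf itself, named after its value was seen, had 0.14. The list's median was 0.14, but 0.03 without TACI-/- replicate 1 and 0.25 without TACI-/- replicate 2.

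Genes known to depend on Irf4 in activated T cells were mostly higher. Of 21 tested, 1 rose, Ctla4 (1.57 log2 units, limma adjusted p = 0.0246), none fell and 20 did not pass. Over all tested genes 0.138% passed. A difference above 0 was seen for 18, and 14.3% had one below 0, against 48.2% of all tested genes. The list was chosen with earlier results of these data known, so its counts and shares are a description and no independent support. The median was 0.49, and 0.50 for the 16 that were at or above the filter on all 4 arrays, but 0.29 with no low-value filter. Of the 18, Tigit and Il12rb2, named after their values were seen, reached the filter on the TACI-/- arrays only. Both could only be tested by being higher there. The transcription factor gene Maf measured 5.46 and 5.43 in TACI-/- and 4.57 and 4.29 in WT cells (1.01, limma adjusted p = 0.1). Nfil3, a basic leucine zipper factor, and the death ligand gene Fasl had 0.84 and 0.83 (limma adjusted p = 0.189 and 0.221). The 3 below 0, named after their values were seen, were the Th2 cytokine gene Il13 (-0.62), Myc (-0.20) and the glycolytic hexokinase gene Hk2 (-0.17). The arrays of all 3 separated between genotypes, as did those of 16 of the 18 above 0. Over all tested genes 18.1% separated lower and 20.5% higher in TACI-/- cells. Of the 9 listed genes not tested, 8 were under the filter, among them Il4, Il10, Il17a, Il21 and Gzmb. Of the 21, Ctla4 and Il2ra are also on the regulatory T cell marker list, and Pdcd1 and Icos on that of activated or memory T cells.

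Genes that Blimp-1 is known to repress did not pass either, in 12 tested. Cd69, an early activation marker, measured 9.57 and 9.48 log2 units in TACI-/- and 8.86 and 8.56 in WT cells (0.82, limma adjusted p = 0.211), and the follicular homing receptor gene Cxcr5 had 0.81. Fos had 0.54, and Il7r, the interleukin-7 receptor of naive cells, -0.48. The list's median was 0.23, and it shares Myc, Id2 and Tbx21 with the Irf4-dependent list. Cd69 is also on the activated or memory T cell marker list, and Il7r on that of naive CD4 T cells.

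The machinery upstream of Irf3, Irf5 and Irf7 was near 0. Of 15 tested sensors, adaptors and kinases none passed, and the median was -0.03, with a range of -0.09 without WT replicate 2 to 0.02 without TACI-/- replicate 2. The kinase Tbk1, which phosphorylates Irf3, had -0.04, its relative Ikbke 0.10, and the adaptors Mavs and Myd88 -0.03 and 0.02, these 4 named after their values were seen. Those with the lowest p were the antibody receptor Trim21 (-0.33), the endosomal receptors Tlr9 and Tlr7 (0.24 and 0.20) and the RNA sensor Ifih1 (-0.14), with limma adjusted p from 0.676 to 0.84.

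Interferon receptors, their kinases and STATs were also near 0, with none of 17 past the threshold and a median of 0.03. That median was 0.02 without WT replicate 2 and 0.12 without WT replicate 1. Ifnar1 and Ifnar2, the type I interferon receptor chains, had -0.10 and 0.09, and Stat2, the partner of Irf9, -0.15, all named after their values were seen. The feedback inhibitors Socs3 and Socs1 had 0.37 and 0.24, Jak2 0.20 and Usp18, an interferon-induced brake on the receptor, -0.19 (limma adjusted p 0.549 to 0.766). Of the interferon genes, 4 of 9 were tested and none passed. Ifnb1 and Ifng were under the filter, and Ifna4, Ifna1, Ifnl3 and Ifnl2 had differences from -0.26 to 0.08. The interferon alpha genes closely resemble one another, as do the lambda genes, and probes may not tell them apart. All 3 tested genes of Irf2-binding corepressors, Irf2bp1, Irf2bpl and Irf2bp2, had positive differences (0.23, 0.19 and 0.09) without passing (limma adjusted p 0.715 to 0.939).

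Target genes of Irf9 and Irf1 were lower as lists although Irf9 overlapped between genotypes and Irf1 was higher. Both lists were chosen with earlier results of these data known, so their counts and shares are given as a description. Of 27 tested targets of ISGF3, 25 had a difference below 0 (92.6%), against 48.2% of all tested genes, with a median of -0.21, yet none passed. Without TACI-/- replicate 2, 19 were below 0, and the median ranged from -0.33 to -0.15 with any 1 array left out. Oas2, an antiviral synthetase, measured 6.80 and 6.73 log2 units in TACI-/- and 7.64 and 7.13 in WT cells (limma adjusted p = 0.462). Ifit2, an RNA-binding antiviral protein gene, had -0.45 and the receptor transporter gene Rtp4 -0.50 (limma adjusted p = 0.398 and 0.464). Ifit3b went the other way, at 4.23 and 4.32 in TACI-/- cells, and was under the filter on both WT arrays (3.50 and 3.13). It is a near copy of Ifit3, which had -0.09, so how the signal splits between them is uncertain.

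Of 25 tested targets of Irf1 and interferon gamma, 20 had a difference below 0 (80%), with a median of -0.17, and none passed. The median was -0.08 without TACI-/- replicate 2 and -0.24 without TACI-/- replicate 1. Irgm2, an interferon-inducible GTPase, measured 5.89 and 5.77 log2 units in TACI-/- and 6.53 and 6.44 in WT cells (-0.66, limma adjusted p = 0.256). It is also a gene of chromosome 11, and the chromosomes of the other targets are not given here. The related GTPase genes Gbp4 and Irgm1 had -0.39 and -0.37, and Casp1, the inflammatory caspase, had 0.45, with WT replicate 1 under the filter (limma adjusted p 0.527 to 0.542). The antigen processing genes Tap1, Psmb8 and Psmb9, named after their values were seen, had -0.21, -0.10 and -0.12. Whether the targets and the regulators differ from each other in response was not tested.

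**Figure D4:**
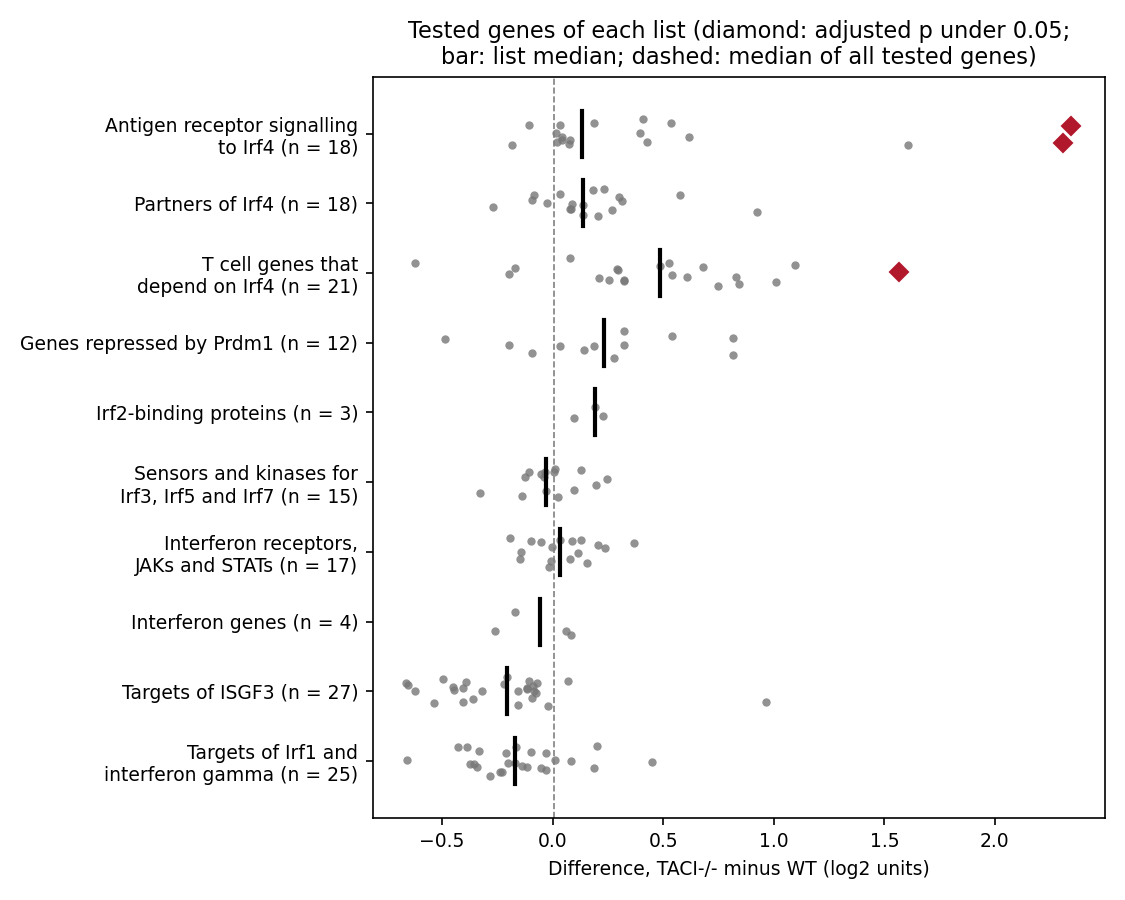
Difference between genotypes, TACI-/- minus WT, in log2 units (horizontal axis) for each tested gene of the 10 lists around the members. Grey points did not pass and red diamonds passed an adjusted p of 0.05, black bars are list medians and the dashed line is the median of all tested genes. The targets of ISGF3 and of Irf1 lie mostly left of 0, the genes that depend on Irf4 mostly right of it, and 3 genes carry a diamond.

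Because Irf4, Irf8 and Prdm1 are also made by other cells, markers of those cells were measured on the same arrays. Summed levels, on the linear scale, of 11 regulatory T cell markers were 599 and 602 in TACI-/- and 466 and 434 in WT cells. Those of 11 activated or memory T cell markers were 1304 and 1197 against 850 and 742. Cd69, at 9.57 and 9.48 against 8.86 and 8.56 log2 units, made up the larger part of each activated or memory sum. Of the regulatory T cell list, 8 of 12 genes were tested, 7 had a positive difference and 1 rose, Ctla4. Over all tested genes 0.138% passed in either direction. Of the activated or memory list, 9 of 12 were tested, all 9 had a positive difference and none passed. Summed B cell markers (13 genes) were 356 and 287 in TACI-/- cells against 236 and 255 in WT cells, with all 8 tested members positive and none past the threshold. Ly86 of this list and Ikzf2 of the regulatory T cell list reached the filter on the TACI-/- arrays only, so they could only be tested by being higher there. Ms4a1, which encodes CD20, was under the filter on all 4 arrays, at 3.28 to 3.62 log2 units. These 3 sums were higher on both TACI-/- arrays than on both WT arrays, as Irf4 and Irf8 were, and their part in the differences of Irf4 and Irf8 was not tested.

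Plasma cell markers, of cells in which Irf4 and Prdm1 are high, summed to 188 and 192 in TACI-/- and 176 and 174 in WT cells. Of 8 listed, 4 were tested and none passed, with differences from 0.01 for Mzb1 to 0.67 for Slamf7, and Jchain was under the filter on every array. This sum too was higher on both TACI-/- arrays, but Slamf7 alone of the 4 separated, the list's median was 0.02 and Sdc1 and Xbp1 had 0.02 each. The summed markers of conventional dendritic cells (266.8 to 299.9 in TACI-/-, 292 to 298 in WT), which rely on Irf4 and Irf8, overlapped between genotypes, as did those of plasmacytoid dendritic cells (164 to 179 against 146 to 170). Their defining markers Itgax and Siglech were at 2.74 to 3.19 and 3.66 to 3.85 log2 units, with Siglech above the filter on 1 array. Of 8 listed conventional dendritic cell markers 2 were tested, Cd209a and Xcr1. Cd209a, at 7.62 to 7.87 log2 units, was the brightest of that list and made up most of its sum. Monocyte and macrophage markers summed to 173 to 197 in TACI-/- and 148 to 168 in WT cells, without overlap. Of its 5 tested genes 3 were below 0 (median -0.09), Lyz2 and Csf1r were lower in TACI-/- on both arrays, and Cd68 alone separated higher, at 6.71 and 6.49 against 6.08 and 5.70 log2 units. The summed CD8 T and NK cell markers were lower in TACI-/- cells, at 190 to 193 against 236 to 255. Of 9 listed, 3 were tested and none passed. Cd8b1 (-0.65) and Klrd1 (-0.87) were lower on both TACI-/- arrays, while Nkg7 (0.17) was higher on both. The summed naive CD4 T cell markers were 9997 to 10200 in TACI-/- against 10740 to 11440 in WT cells.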

How the data were processed

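Sorted naive CD4+ T cells were measured on 4 arrays, 2 per genotype. The deposited values are log2 expression per probe set; RMA and Partek are named per the submitters' processing notes, without role or version, and base 2 was inferred from the range (0.944 to 13.2). Of 41345 probe sets, 23521 had 1 symbol. Each gene took its brightest probe set over the 4 arrays, and 13782 genes that reached the 40th percentile of an array on at least 2 arrays were tested with limma 3.58.1 in R 4.3.3 (two-sided, genotype only, Benjamini-Hochberg over all genes, threshold 0.05). Differences are TACI-/- minus WT, and the SE is moderated. The fit was tested on simulated data.

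The members and lists were chosen with earlier results of these data known. Named genes were the members, up to 4 per list by p, the 5 genes most like Irf4, and the markers. The chromosomal neighbours of Irf4 and Irf1, Ifit3 as the near copy of Ifit3b, untested list genes and genes said to be named after their values were seen were added. Listed genes that lack such a probe set were not analysed here. RefSeq tables (GRCm38.p6), which matched all 9 members, gave promoter sequences, chromosomes and gene order. The array files name no build. The highest share of identical values between arrays was 0.44%, so none was a duplicate. Alternatives changed the low-value filter, the scaling, the probe set rule, the variance moderation and the threshold, left out each array in turn, or added the replicate number as a block. The number of arrays limits the precision.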

Additional observations from a re-analysis of the deposited data

How the results depend on the processing

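The count of 19 genes past the threshold in limma was 3 with no low-value filter, 35 with the filter met on all 4 arrays, 45 with the 60th percentile, 45 with trended robust moderation, 38 at an adjusted p under 0.1, and 317 where the rule was a 1.5-fold change and an unadjusted p under 0.05. It was 0 with no moderation (986 genes at an unadjusted p under 0.05), and 0 to 0 with any 1 array left out (721 to 1145 genes). The 3 list genes past the threshold, Nr4a3, Nr4a2 and Ctla4, became 1 with no low-value filter, 0 with no moderation and 0 to 0 with 1 array left out. A fit without an array assumes that the lone sample varies like the other genotype. With the replicate block 13 genes passed, Irf4 among them. The numbers are shared only as numbers, and over tested genes the replicate differences of the genotypes correlated at -0.03, so the block is not taken as a pairing. Among the members' differences, that of Irf8 moved to 0.11 with the mean over probe sets, and the cause is the dimmer probe set in that mean. Under the other settings that keep all arrays, the other members' differences moved by less than the spread between replicates. Of those settings only the changes of scaling could move them, since the filter, the variance moderation, the threshold and the block leave a difference as it is. Of 130 list medians under alternatives, 127 moved by less than the spread between replicates. The variance moderation and the replicate block cannot move a median, so part of this count was fixed in advance. Signal near the filter limits Irf8 and the WT level of Irf4, and 2 arrays per genotype limit every value.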
